A study of Mus musculus with 598 samples.

Results

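The 44 protein-coding mouse genes that encode collagen chains were followed in single Mesp1-GFP+ cells of gastrulating embryos. They were every protein-coding gene whose symbol has the form of a collagen chain (Col, a type number, a and a chain number), and they were 44 of 40912 genes counted, of which 21397 are protein-coding. The 598 libraries, 1 per cell, came from E6.75 WT cells (28.76%), 85 E6.75 KO cells and E7.25 WT cells (57.02%), where E is the embryonic day. All of them, wild type and knockout, carry the reporter of Mesp1, a transcription factor of the first mesoderm leaving the primitive streak, and were sorted for it. The labels name neither the targeted gene of the knockout nor any embryo, litter or pool. Mesp1 itself stood at 7.40 CPM (reads per 1000000 reads on genes) in knockout cells and between 405.8 and 531.1 CPM in the wild type groups.

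A collagen molecule is a triple helix of 3 chains, wound in the endoplasmic reticulum after prolyl and lysyl hydroxylation, and each chain has its own gene. Type IV collagen is the network former of basement membranes, the sheets under an epithelium, and its commonest molecule combines the products of Col4a1 and Col4a2. Fibrillar collagens (types I, II, III, V, XI, XXIV and XXVII) build fibrils, fibril-associated collagens decorate them, multiplexins such as collagen XVIII sit in basement membranes, and transmembrane collagens such as types XIII and XXIII are anchored at the cell surface. Gastrulation is the stage at which cells cross a basement membrane and become mesoderm.

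The libraries formed 2 sets, which carry no name in the labels. Set 1 held 83 wild type and 85 knockout cells of E6.75 and E7.25 cells that made up 28.93% of all cells, and set 2 held 89 E6.75 WT cells and E7.25 cells that made up 28.09%. Cells of set 1 had reads of at least 5 of 8 genes that set 2 mostly lacks, and all cell numbers in the titles of the wild type cells matched this split. Median depth per cell was 689539 (E6.75 WT), 940161 (knockout) and 807746 reads (E7.25) in set 1, and 1799029 and 2264484.5 reads in set 2, over a range of 101895 to 14159574. Throughout, a cell counted as having Y-linked reads when the summed level of 3 such genes passed 3 CPM. This held for 63.86%, 57.65% and 54.91% of the cells of the 3 groups of set 1 and for no cell of set 2. Cells described as without Y-linked reads can thus hold some reads below that level. Comparisons were therefore made within a set. Each group of a set counts as 1 sample, so there are no replicates, no test and no p-value. The 95% intervals (exact Poisson for CPM, exact Clopper-Pearson for shares of cells) reflect counting error alone: the reads carry no molecular identifiers, so they are not independent molecules. The extraction text speaks of adult bone marrow, and the 9 bone marrow markers of a fixed list summed to 7.76, 10.7 and 20.8 CPM in E6.75 WT, knockout and E7.25 of set 1 and to 19.9 and 15.7 (15.65) CPM in set 2. Ptprc, the pan-leukocyte gene among them, stood at 0.097 CPM or less in every group, while the myeloid gene Mpo reached 2.37 CPM and Elane 0.895 (0.8945) CPM at E7.25 in set 1.

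Where the leading chain genes start is shown first, because 2 of them share a start. Col4a1 (chromosome 8, 11198423 to 11312826, minus strand, build GRCm38) and Col4a2 (chromosome 8, 11312805 to 11449287, plus strand) lie head to head, and their first exons share 22 bases. Those bases are in capitals here, between 4 flanking bases of the first exons on either side, read on the plus strand of GRCm38.p6 at chr8:11312801-11312830 (RefSeq).
Col4a1 and Col4a2 shared start: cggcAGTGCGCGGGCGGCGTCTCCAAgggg
Col13a1 and Col23a1, the transmembrane chains with the most reads, are each transcribed from a single tabulated start, and the 250 bases before it hold no annotated exon. They are shown because both genes had more reads at E7.25 than at E6.75, and capitals mark the E-box (CANNTG, the same on both strands), the kind of motif bound by basic helix-loop-helix factors such as Mesp1.
Col13a1, minus strand, chr10:61979109-61979358: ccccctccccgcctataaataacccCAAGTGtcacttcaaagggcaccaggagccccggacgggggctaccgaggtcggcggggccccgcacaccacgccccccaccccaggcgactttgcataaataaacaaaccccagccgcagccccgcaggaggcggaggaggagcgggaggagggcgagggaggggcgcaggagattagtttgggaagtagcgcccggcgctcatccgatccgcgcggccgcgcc
Col23a1, plus strand, chr11:51289670-51289919: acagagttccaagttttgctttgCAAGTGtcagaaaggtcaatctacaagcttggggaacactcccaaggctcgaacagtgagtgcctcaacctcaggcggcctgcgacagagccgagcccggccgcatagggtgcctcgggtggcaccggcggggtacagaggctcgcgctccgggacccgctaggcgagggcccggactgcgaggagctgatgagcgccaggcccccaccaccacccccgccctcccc
Each of these windows held 1 E-box, at positions -225 and -227 relative to the start, and 66.19% of the 32536 different start windows of all genes in the RefSeq table held at least 1. The windows before Col4a1 and Col4a2, which run into the partner gene's exons, held none. The CCAAT box (CCAAT, both strands) was found once in each of the type IV windows and in 33.81% of all windows. GC content was 68.8% for Col13a1, 66% for Col23a1, 74.4% for Col4a1 and 73.6% for Col4a2, against a median of 52.4%. The table held 35 of the 44 collagen genes. A motif match is a description of the letters only.

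Few collagen genes were on in these cells. A chain was called on in a group when its summed reads reached 5 CPM and at least 25% of cells had a read after every cell was thinned to 100000 reads. By that rule Col4a1, Col18a1 and Col4a2 were on in E6.75 WT cells of set 1, and Col18a1 and Col4a1 in knockout cells. At E7.25 in set 1, the 4 chains on were Col4a1, Col4a2, Col23a1 and Col13a1. In set 2, the 5 chains Col18a1, Col4a1, Col4a2, Col13a1 and Col23a1 were on at E6.75, and at E7.25 Col5a2, Col9a1 and Col5a1 joined them, making 8. The 5 CPM level alone was reached by 6, 2 and 8 chains in the 3 groups of set 1 and by 10 and 11 in set 2, while 42.65% to 45.88% of all protein-coding genes reached it. In all, 13 chains reached 5 CPM in at least 1 group.

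**Figure D1:**
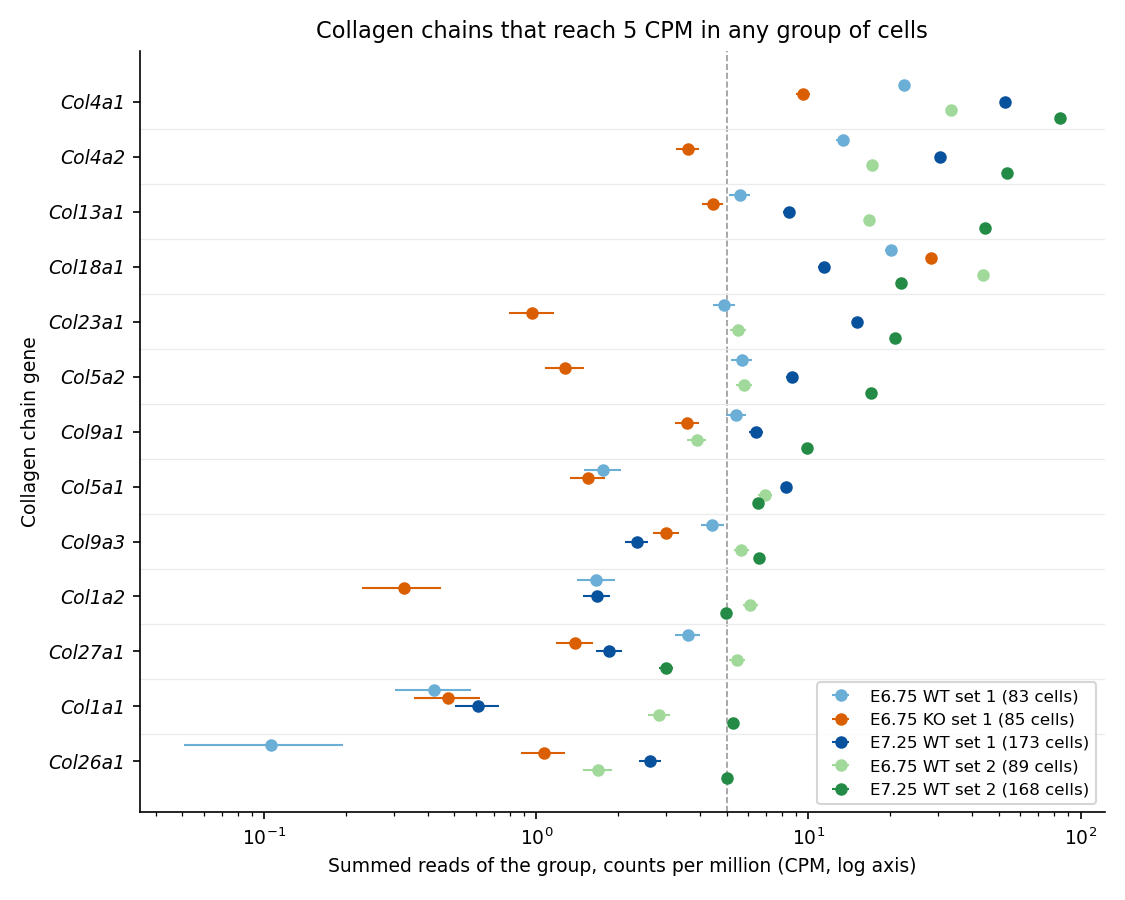
Summed reads in CPM (log axis) of the 13 collagen chain genes that reached 5 CPM in any group, in the 5 groups of cells; bars are exact Poisson 95% intervals and the dashed line is 5 CPM. Col4a1 runs from 9.57 CPM in knockout cells to 83.7 CPM at E7.25 in set 2, and Col18a1 lies lower at E7.25 than at E6.75 in both sets.

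For the remaining 31 chains the highest group lay between 0.0162 and 4.23 CPM. Of these, 16 stayed below 1 CPM in every group. They were Col3a1, Col5a3 and Col11a2 of the fibrillar class, Col4a4 of type IV, Col7a1, Col8a1 and Col10a1 of the other networks and anchors, Col6a4, Col6a5, Col6a6 and Col28a1 of the beaded filaments, Col12a1 and Col20a1 of the fibril-associated class, Col17a1 and Col25a1 of the transmembrane class, and the multiplexin Col15a1. The chains between were Col2a1, Col11a1 and Col24a1 (fibrillar), Col4a3, Col4a5 and Col4a6 (type IV), Col6a1, Col6a2 and Col6a3 (type VI, which forms beaded filaments), Col8a2, Col9a2, Col14a1, Col16a1, Col19a1 and Col22a1. The interstitial fibril chains of later connective tissue were thus low. Col3a1 reached 0.47 CPM at most. Col1a1 read 0.422 CPM in E6.75 WT, 0.474 in knockout and 0.609 at E7.25 in set 1, and 2.82 and 5.27 CPM at E6.75 and E7.25 in set 2. Its partner chain Col1a2 read 1.66, 0.325 and 1.67 CPM in set 1 and 6.11 and 4.99 CPM in set 2. Without thinning, Col1a1 had a read in 26.2% of the E7.25 cells of set 2, and 12.1% or less of the set 1 cells of any group. Set 2 is deeper, and the part of depth in this gap was not tested.

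Per kilobase of exon, the scale on which genes can be ranked, Col4a1 led in both E7.25 groups and in E6.75 WT of set 1. In E6.75 WT of set 1, Col4a1 had 3.01 CPM per kb, Col18a1 2.85, Col4a2 2.02 (2.015 before rounding), Col13a1 1.21 and Col9a3 1.15. In knockout cells Col18a1 led with 4.03 CPM per kb, ahead of Col4a1 with 1.28 and Col13a1 with 0.967. At E7.25 in set 1 the order was Col4a1 with 7.10 (7.095), Col4a2 with 4.61, Col23a1 with 2.63 (2.625) and Col13a1 with 1.84 CPM per kb. In set 2, Col18a1 led at E6.75 with 6.24 CPM per kb, followed by Col4a1 with 4.47 and Col13a1 with 3.61. At E7.25 in set 2, Col4a1 led with 11.2, followed by Col13a1 with 9.70 and Col4a2 with 8.10 CPM per kb. Col4a1 thus led in 3 groups and Col18a1 in 2, but in E6.75 WT of set 1 the lead rested on single cells. Leaving out WT_41, WT_43 or WT_81 put Col18a1 first there, and without WT_81 it had 3.05 CPM per kb against 2.17 for Col4a1. No single cell changed first place in the other groups.

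Col4a1 and Col4a2, the paired chains of the ubiquitous type IV collagen, took a larger share of the collagen reads at E7.25. Together they gave 33.2% of the summed collagen CPM in E6.75 WT, 17.96% in knockout and 48.8% at E7.25 in set 1, and 27.8% and 43.4% at E6.75 and E7.25 in set 2. Over all 44 chains the summed level was 107.9 CPM in E6.75 WT, 73.3 in knockout and 171.2 at E7.25 in set 1, and 181.4 and 316.2 CPM at the 2 stages of set 2. The sum was higher at E7.25 in each set and lower in the knockout than in its wild type.

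By class, the 6 type IV chains summed to 37.1 CPM in E6.75 WT, 14.8 (14.75) in knockout and 87.2 at E7.25 in set 1, and to 54.6 and 141.8 CPM at the 2 stages of set 2. The 4 transmembrane chains summed to 10.6 (10.55), 5.59 and 23.6 CPM in set 1 and to 23.6 and 65.9 CPM in set 2. Both classes were lowest in knockout cells and highest at E7.25 within each set. The 2 multiplexins ran otherwise, with 20.2, 28.4 (28.35) and 11.6 CPM in set 1 and 43.8 and 21.9 CPM in set 2, nearly all of it Col18a1, and made up 38.7% of the collagen reads in knockout cells against 18.7% in E6.75 WT. The 11 fibrillar chains summed to 19.5, 10.04 and 25.3 CPM in set 1 and to 32.96 and 42.2 CPM in set 2. The 9 fibril-associated chains summed to 18.3, 9.37 and 14.8 CPM in set 1 and to 19.01 and 27.04 CPM in set 2, and so did not lie higher at E7.25 in set 1. The beaded filament chains, 7 in number, stayed at 10.2 CPM or less in every group.

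Between wild type stages, Col4a1 in set 1 read 22.5 CPM (21.5 to 23.4) in the earlier and 52.96 CPM (51.9 to 54.02) in the later group. Single cells at E6.75 ran from 0 over a median of 1.18 to 207.6 CPM, and those at E7.25 from 0 over 18.9 to 317.9 CPM. In set 2 the sums were 33.3 and 83.7 CPM, the medians 25.8 and 71.3 (71.25) CPM, and the highest cells 119.7 and 329.6 CPM. The ranges of cells overlapped at both stages in both sets, because some cells had no read, while the median cell was higher at E7.25 in each set. The log2 ratio of CPM + 1 was 1.20 in set 1 and 1.30 in set 2. In set 1 a single E7.25 cell (WT_166) held 25.8% of the Col4a1 reads of its group, and without it the ratio was 0.89, under 2-fold. No single cell took the ratio in set 2 below 1.27. In set 1 the ratio was 1.84 among cells with Y-linked reads and 0.29, under 2-fold, among cells without them.

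Col4a2 showed the same direction. Its sums were 13.3 and 30.5 CPM in set 1 and 17.1 and 53.6 CPM in set 2, with median cells at 0 and 5.58 CPM in set 1 and at 6.13 and 38.1 CPM in set 2. The log2 ratio was 1.14 in set 1, where leaving out 1 E7.25 cell (WT_44) brought it to 0.996, and 1.59 in set 2, with a lowest value of 1.54. Splitting set 1 by Y-linked reads gave Col4a2 ratios of 1.06 where they were present and 1.17 where they were not. After thinning, the share of cells with a Col4a2 read was 25.3% (16.4 to 36.04%) and 53.8% (46.03 to 61.4%) at the 2 stages of set 1, and 46.1% (35.4 to 56.96%) and 79.2% (72.2 to 85.04%) in set 2. These intervals did not overlap within either set, but they count cells of 1 sample per group and do not measure the spread between embryos.

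**Figure D2:**
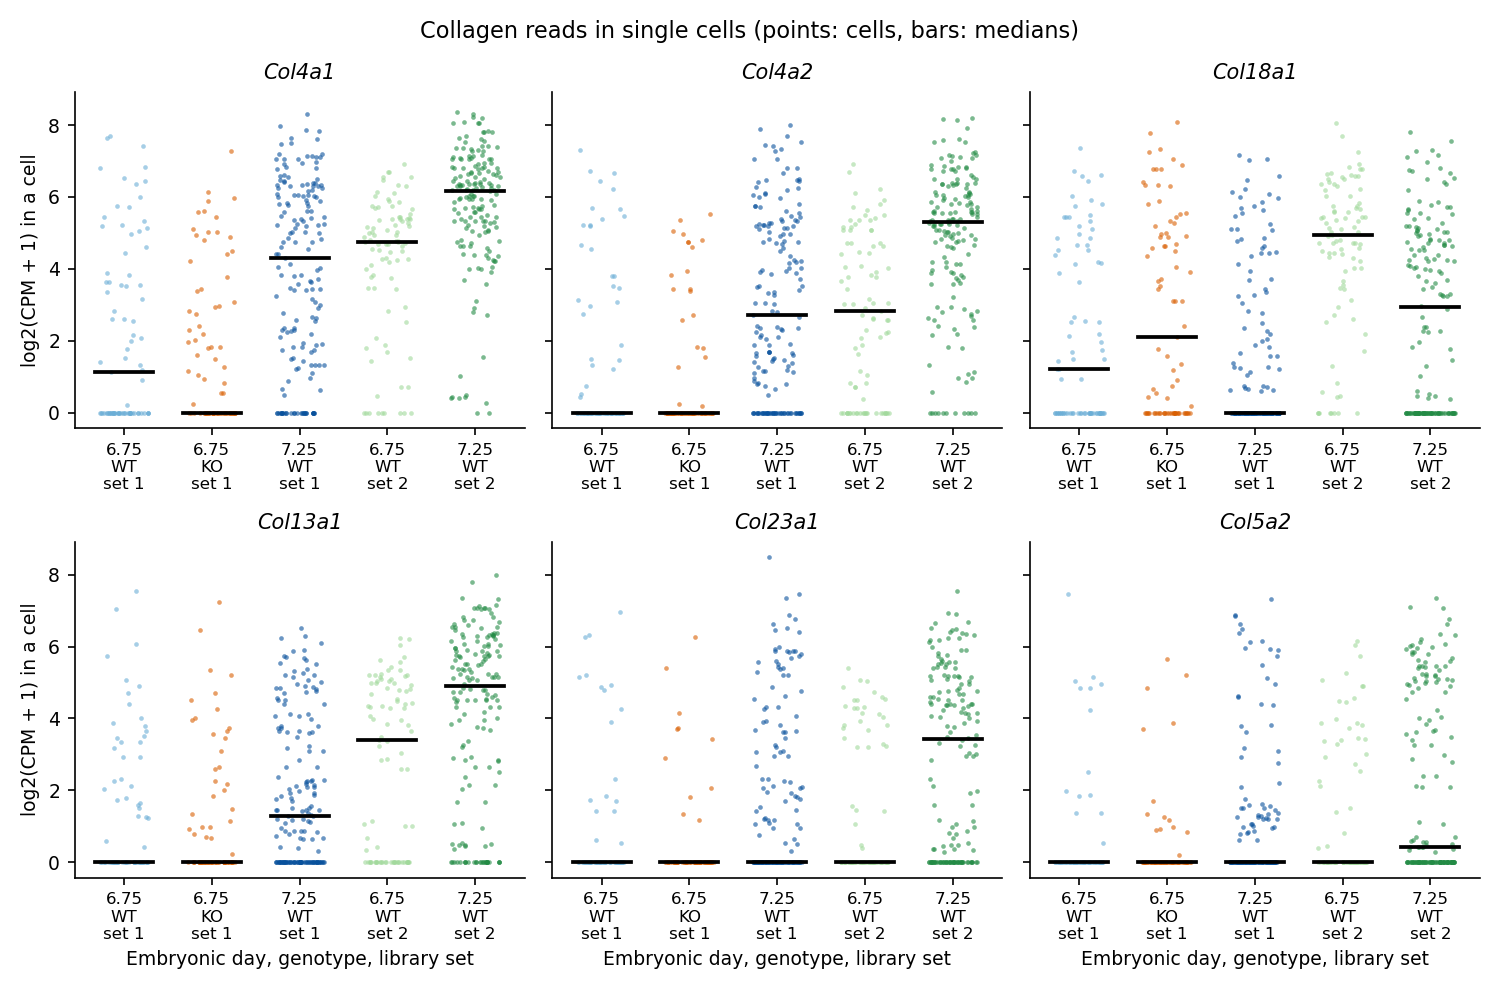
Level of 6 collagen genes in every cell, as log2(CPM + 1), for the 5 groups of cells; each point is a cell and the black bar is the median of the group. The Col4a1 and Col4a2 medians are higher at E7.25 in both sets, the Col18a1 median is lower, and cells without reads are present in every group.

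The transmembrane chains Col23a1 and Col13a1 were the other leading genes with more reads at E7.25. Col23a1 read 4.90 CPM (4.46 to 5.37) and 15.1 CPM (14.5 to 15.6) at E6.75 and E7.25 in set 1, and 5.50 (5.14 to 5.87) and 20.7 CPM (20.3 to 21.2) in set 2. Its highest cells had 124.6 and 359.6 CPM in set 1 and 41.3 and 184.9 CPM in set 2, the lowest had none, and the median was 0 except at E7.25 in set 2, where it was 9.71 CPM. The log2 ratio was 1.44 in set 1 and 1.74 in set 2, and no single cell took it below 1.28 and 1.69. In set 1 it was 0.87, under 2-fold, among cells with Y-linked reads and 1.98 among cells without them. Col13a1 read 5.59 and 8.47 CPM in set 1 and 16.6 and 44.7 CPM in set 2, with log2 ratios of 0.52 and 1.37. Its median cell was at 0 and 1.44 CPM in set 1, and at 9.64 and 29.04 CPM in set 2. Col13a1 thus passed 2-fold in set 2 only, and whether the sets differ was not tested. In set 1 its ratio was 1.64 among cells with Y-linked reads and -0.89 among cells without them.

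The fibrillar pair Col5a1 and Col5a2, whose products form type V collagen, a regulator of fibril assembly, did not move alike. Col5a2 read 5.68 and 8.67 CPM at E6.75 and E7.25 in set 1 and 5.80 and 16.98 CPM in set 2, with log2 ratios of 0.53 and 1.40. In set 1 the Col5a2 ratio was -0.27 among cells with Y-linked reads and 2.02 among those without. Col5a1 read 1.75 and 8.30 CPM in set 1, a log2 ratio of 1.76, but 1 E7.25 cell (WT_166, the same as for Col4a1) held 55.4% of the reads, and without it the ratio was 0.86. By Y-linked reads, present or absent, it was 2.57 and 0.45. In set 2, Col5a1 read 6.92 and 6.55 CPM (6.545), a log2 ratio of -0.07, so the direction was not shared.

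Col18a1, the multiplexin whose C-terminal fragment is endostatin, ran the other way. It read 20.03 CPM (19.1 to 20.95) and 11.4 CPM (10.9 to 11.9) at E6.75 and E7.25 in set 1, and 43.8 CPM (42.8 to 44.9) and 21.8 CPM (21.4 to 22.3) in set 2. The median cell stood at 1.32 CPM at E6.75 and at 0 at E7.25 in set 1, and at 29.9 and 6.65 CPM in set 2, with highest cells of 163.4, 142.3, 265.95 and 222.03 CPM in that order. After thinning, 38.6% (28.1 to 49.9%) and 22.5% (16.6 to 29.5%) of cells had a read at the 2 stages of set 1, and 75.3% (65 to 83.8%) and 47.02% (39.3 to 54.9%) in set 2. The shares were lower at E7.25 in both sets, with intervals that overlapped in set 1 and did not in set 2. Here too the intervals count cells of 1 sample per group. The log2 ratios, -0.77 and -0.97 in sets 1 and 2, stayed under 2-fold.

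Among the other named chains, Col9a1, a chain of the cartilage-associated type IX collagen, read 5.42 and 6.42 CPM in set 1 and 3.88 and 9.89 CPM in set 2, with log2 ratios of 0.21 and 1.16. Its partner Col9a3 had ratios of -0.70 and 0.18. Col26a1 read 0.106 and 2.62 CPM in set 1 and 1.69 (1.685) and 5.03 CPM in set 2, with ratios of 1.71 and 1.17. Col27a1, a fibrillar chain, was lower by less than 2-fold in both sets, at -0.69 in each.

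Counted over the family, 7 of 19 chains measured in set 1 (mean of the groups at least 1 CPM) were at least 2-fold higher at E7.25 and 3 were at least 2-fold lower. Over all 13431 genes measured, 7.07% were so higher and 4.49% so lower. In set 2, 9 of 25 chains were at least 2-fold higher and none was lower, against 5.66% and 2.48% of 13689 genes. The median log2 ratio of the chains was 0.26 in set 1 and 0.61 in set 2, and that of all genes measured was 0.02 and 0.04. In both sets the chains past 2-fold upward included Col4a1, Col4a2, Col23a1 and Col26a1. Set 1 added Col5a1, Col6a2 and Col14a1, and set 2 added Col5a2, Col13a1, Col9a1, Col6a1 and Col16a1. The 3 lower chains of set 1 were Col2a1, the cartilage fibril chain, with -1.22, and the fibril-associated Col9a2 and Col22a1 with -1.17 each. Cell 11 of E6.75 WT decided the value of Col2a1, which was -0.14 without it, and 1 E7.25 cell (WT_279) decided Col16a1 in set 2, which was 0.52 without it. In set 1, leaving out any of 7 cells (E7.25 WT_17, WT_86, WT_98, WT_103, WT_169 and WT_171, and E6.75 WT_58) took Col14a1 under 2-fold, to 0.70 at the farthest. The same held for Col6a2 and E7.25 cells WT_90 and WT_117 (to 0.94), for Col22a1 and E6.75 cells WT_23 and WT_46 (to -0.56), and for Col9a2 and E6.75 cells WT_21, WT_23 and WT_82 (to -0.83). The TMM and median-of-ratios scalings each added Col18a1 as 1 lower chain in set 2.

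**Figure D3:**
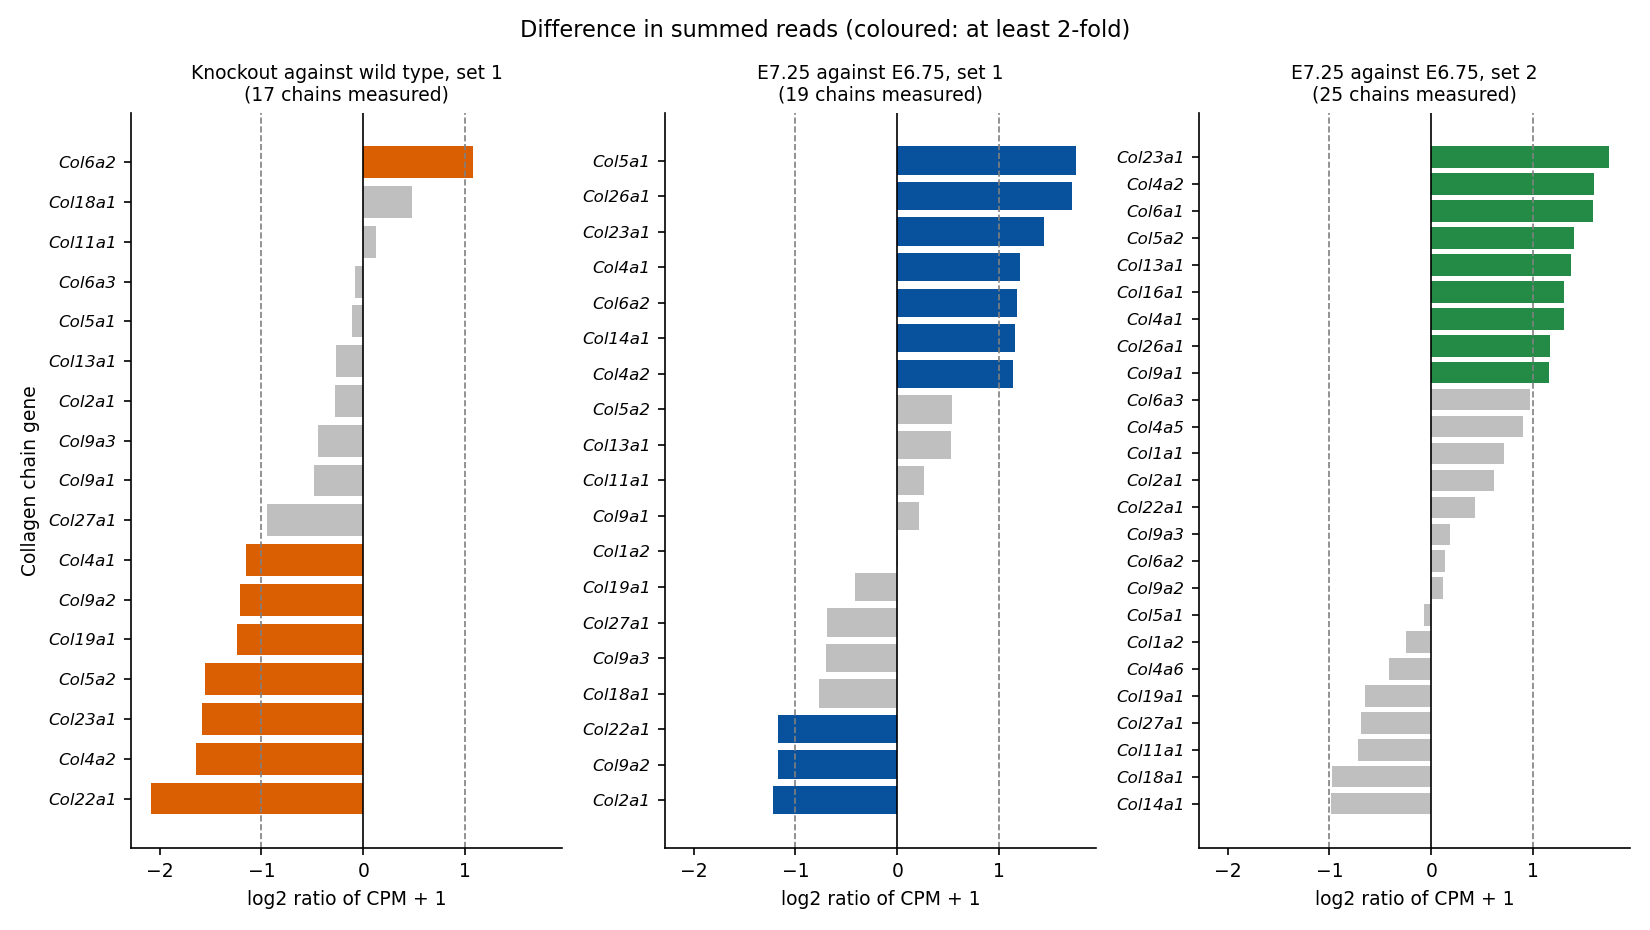
Log2 ratio of CPM + 1 (1 CPM added) of every collagen chain measured in the knockout comparison of set 1 and in the stage comparisons of both sets; coloured bars are past 2-fold, marked by the dashed lines. In the knockout panel 7 bars pass 2-fold downward and 1 upward, and in the stage panels 7 and 9 pass it upward.

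In knockout cells at E6.75, the type IV chains had fewer reads than in wild type cells of the same set. In knockout Col4a2 read 3.60 CPM (3.26 to 3.97), and it read 13.3 CPM (12.6 to 14.1) in E6.75 WT. Single knockout cells ran from 0 over a median of 0 to 44.9 CPM, and wild type cells from 0 over 0 to 157.4 CPM. The median cell had no read in either group, and the cells above 44.9 CPM were all wild type. The log2 ratio was -1.64, and it lay between -1.83 and -1.35 when each cell was left out in turn. After thinning, a Col4a2 read was found in 15.3% (8.40 to 24.7%) of the knockout and 25.3% (16.4 to 36.04%) of the wild type cells, intervals that overlap. The difference of the mean log2(CPM + 1) of single cells, knockout minus wild type, was -0.57. Where Y-linked reads were present the Col4a2 ratio was -2.81, and where they were absent it was -0.71, under 2-fold.

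Col4a1 read 9.57 CPM (9.01 to 10.2) in knockout and 22.5 CPM in wild type, a log2 ratio of -1.15. Knockout cells ran from 0 over a median of 0 to 153.1 CPM, and wild type cells from 0 over 1.18 to 207.6 CPM. The 2 groups overlapped over nearly the whole range. A single wild type cell (cell 81) held 32.6% of the wild type reads, and without it the ratio was -0.70, under 2-fold. The share of thinned cells with a read was 28.2% (19 to 39.04%) in knockout and 33.7% (23.7 to 44.95%) in wild type. For both type IV chains the summed level thus differed by more than the share of cells with a read.

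Col23a1 and Col5a2 were also at least 2-fold lower in the knockout. Col23a1 read 4.90 CPM in wild type, as above, and 0.966 CPM (0.794 to 1.16) in knockout, a log2 ratio of -1.59 (-1.585) that stayed between -1.75 and -1.38 over all cells left out in turn. Knockout cells reached 75.8 CPM and wild type cells 124.6 CPM, and the median cell of each group had no read. A Col23a1 read was found in 7.06% (2.63 to 14.7%) of thinned knockout and 14.5% (7.70 to 23.9%) of thinned wild type cells, intervals that overlap. Split by Y-linked reads, the Col23a1 ratio was -2.01 where they were present and -0.98, under 2-fold, where they were absent. Col5a2 read 1.27 and 5.68 CPM, a ratio of -1.56 (-1.555), but 1 wild type cell (cell 28) held 56.7% of its reads and the ratio without it was -0.62. Among cells with and without Y-linked reads it was -1.79 (-1.785) and -0.77.

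Among chains below 5 CPM, Col22a1, a chain found at tissue junctions, read 0.0615 CPM in knockout from 7 reads and 3.51 CPM in wild type, a ratio of -2.09. It had a read in 4.71% and 6.02% of the cells, and a single wild type cell held 46.7% (46.69%) of the wild type reads. Col19a1 was at -1.24 and Col9a2 at -1.21. Leaving out wild type cell 26 brought Col19a1 to -0.49, and leaving out any of 4 wild type cells (WT_21, WT_23, WT_34 and WT_82) took Col9a2 under 2-fold, to -0.87 at the farthest. Col6a2 alone was higher, at 1.08, with 93.9% (93.85%) of the knockout reads in 1 cell (cell 82), without which it was at -0.38.

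Col18a1, the chain with the most reads in knockout cells, was not among the lower genes. It read 28.3 CPM (27.3 to 29.3) in knockout, against 20.03 CPM in wild type, for a log2 ratio of 0.48. The median knockout cell had 3.28 CPM and the highest 272.5 CPM, against 1.32 and 163.4 CPM in wild type, so the groups overlapped. Thinned cells with a read made up 49.4% (38.4 to 60.5%) and 38.6% (28.1 to 49.9%). The direction was not the same in cells with and without Y-linked reads, as given among the results for a closer look. Col13a1 at -0.27, Col9a1 at -0.49, Col9a3 at -0.44, Col5a1 at -0.11 and Col27a1 at -0.95 stayed under 2-fold. Among cells without Y-linked reads, Col9a1 (-1.26), Col9a3 (-1.77) and Col27a1 (-1.29) passed it, and none of these chains did among cells with them.

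Counted over the family, 7 of 17 chains measured were at least 2-fold lower in knockout (41.2%), against 7.02% of all 13300 genes measured. At least 2-fold higher was 1 chain, against 4.31% of all genes. The median log2 ratio was -0.49 over the 17 chains and -0.03 over all genes. Col4a2, Col23a1 and Col22a1 kept the 2-fold difference whichever single cell was left out, though Col4a2 and Col23a1 did not keep it where Y-linked reads were absent. There, 6 of 16 chains measured were lower and 3 higher, each against 10.79% of all genes. The 6 held 2 of the 7 lower chains above, Col4a1 and Col22a1, with Col18a1, Col27a1, Col9a1 and Col9a3. Where such reads were present, all 7 were lower and 2 chains were higher, of 16 measured, against 10.43% and 5.86% of all genes. When the CPM of single cells was averaged in place of summing reads, 4 chains were lower, namely Col4a2, Col23a1, Col22a1 and Col19a1, and none of them was Col4a1. The knockout and the stage comparison of set 1 share the E6.75 WT cells, so their values are set side by side only: Col4a1 had -1.15 and 1.20, Col4a2 -1.64 and 1.14, Col23a1 -1.59 (-1.585) and 1.44, and Col18a1 0.48 and -0.77.

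The groups also differed in the makeup of the cells, as far as marker genes show. Summed over 8 nascent mesoderm markers, the median cell of E6.75 WT in set 1 had 1137.0 CPM and that of the knockout 348 CPM, with all 8 above 1 CPM in knockout. The sum of 8 primitive streak markers over the group was 2200.5 CPM in wild type and 3163.5 CPM in knockout, and that of 9 epiblast markers 1105.7 and 1690.9 CPM. On the same scale and in the same order, nascent mesoderm markers summed to 1310.6 and 354.5 CPM, and haemato-endothelial markers to 318.7 and 32.98 CPM. Paraxial markers summed to 195.7 and 44.5 CPM, cardiac markers to 214.3 and 77.5 CPM, and epithelial markers to 408.4 and 693.8 CPM. Between stages the streak sum went from 2200.5 to 713.7 CPM in set 1 and from 3406.4 to 1153.2 CPM in set 2, and the median cell's sum of 9 paraxial mesoderm markers from 130.8 to 550.1 CPM and from 152.8 to 890.2 CPM. The part of these differences in the collagen values was not tested. The parietal endoderm, which lays down much type IV collagen, is marked by Thbd, which read 0.0634 CPM (0.06335) in E6.75 WT and 0.0791 CPM (0.07905) in knockout, and 3.88 CPM at E7.25 of set 1 and 0.242 (0.2415) and 10.97 CPM in set 2. Over the 10 parietal markers the summed level lay between 693.7 and 1023.1 CPM in all groups, but single members differed in both directions. Sparc, Cited1 and Thbd were at least 2-fold higher at E7.25 in both sets, and Plat in set 2, while Fst was lower in set 1. In knockout, Pth1r and Snai1 were at least 2-fold lower and Fst was higher. The 10 visceral endoderm markers summed to 252.6, 168.8 and 376.9 CPM in E6.75 WT, knockout and E7.25 of set 1 and to 131.3 and 365.6 CPM in set 2. Of them, Amn and Rbp4 were at least 2-fold higher at E7.25 in set 1, and Apoe and Amn in set 2, while Afp and Ttr were at 0.146 CPM (0.1455) or less in every group. The part of the endoderm markers in the collagen values was not tested.

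Cells of 1 label in the 2 library sets give a scale for these differences. At E6.75, 8 of 20 chains measured were at least 2-fold higher in set 2 than in set 1 and none was lower, against 8.55% and 4.17% of all genes. At E7.25, 6 of 24 were higher and 1 lower, against 6.52% and 2.44%. The log2 ratio of set 2 to set 1 was 0.55 and 0.65 for Col4a1 at the 2 stages, 0.33 and 0.79 for Col4a2, and 0.14 and 0.44 for Col23a1, each smaller than the stage differences of that gene over all cells of a set. For Col18a1 it was 1.09 and 0.88, and for Col13a1 1.42 and 2.27, both larger than the stage differences of Col13a1 (0.52 and 1.37). The Col18a1 differences of 0.48 in knockout and -0.77 between stages of set 1 were smaller in size than both, and its -0.97 in set 2 lay between them. The sets also differ in depth and in Y-linked reads, and the part of these in the collagen values was not tested.

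The 2 type IV chains that make up a single molecule were not always read in the same cell. After thinning, both were found in 9.64% of E6.75 WT cells, 9.41% of knockout cells and 38.2% (38.15%) of E7.25 cells in set 1, and in 30.3% and 75.6% of the cells at the 2 stages of set 2. The products of the 2 single shares were 8.54% (8.535), 4.32% (4.318), 34.5%, 32.1% and 73.5% in the same order. In the knockout 8 cells had both, 16 only Col4a1 and 5 only Col4a2. Of the cells with a Col4a2 read, 38.1%, 61.5% and 70.97% also had a Col4a1 read in set 1, and 65.9% (65.85%) and 95.5% in set 2. Per kilobase, Col4a1 stood above Col4a2 by 1.49, 2.36, 1.54, 1.73 and 1.39 times (1.385) in that order. Over cells, Spearman's rho between the chains was 0.02 (n = 83), 0.34 (n = 85) and 0.24 at E7.25 in set 1, and -0.07 (n = 89) and 0.29 at E7.25 in set 2, where the cells are those counted above. All cells were thinned to the same depth of 100000 reads, and correlations of sparse counts of this size are a description only. Since the counting strand is not given in the sources used here, reads over the 22 shared bases cannot be assigned to either gene.

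**Figure D4:**
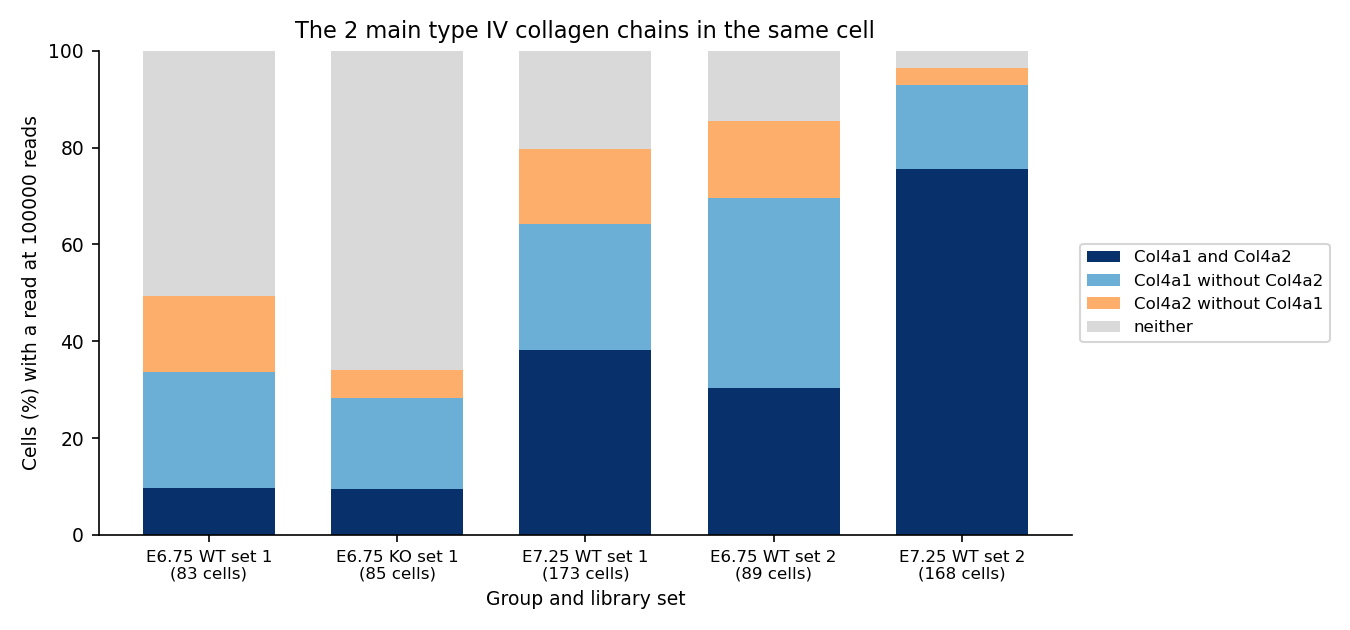
Percent of cells in each group with a read of both, one or neither of Col4a1 and Col4a2 after thinning every cell to 100000 reads. Both chains were found in 9.64% of E6.75 WT cells and 38.15% of E7.25 cells of set 1, and in 30.34% and 75.6% in set 2.

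Single cells carried few chains at once. With every cell at 100000 reads, the median cell had reads of 3 chains in E6.75 WT, 2 in knockout and 4 at E7.25 in set 1, and of 5 and 6 chains at the 2 stages of set 2, with at most 13 of 44. Cells with none of the 44 numbered 1, 8 and 1 in the groups of set 1 and 0 in set 2. The 8 knockout cells were 9.41% of their group (4.15 to 17.7%), and the wild type cell was 1.20% (1.205, interval 0.0305 to 6.53%). Without thinning, the collagen sum of the median cell was 81.2 CPM (81.15) in E6.75 WT, 59.4 in knockout and 138.8 at E7.25 in set 1, and 169.3 and 291.8 CPM in set 2. The knockout cells were lowest on each measure, and the ranges of all groups overlapped.

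The genes whose reads went most with a chain were taken over all E7.25 cells of set 2, for the 3 chains with the most reads per kilobase, among 10284 genes. For Col4a2 they were Sparc, a collagen-binding secreted protein (rho 0.41 in set 2, 0.27 in set 1), Crabp1 (0.39 and 0.28), Ptgds (0.38 and 0.03), the prolyl 3-hydroxylase P3h2 (0.37 and 0.09) and Cap2 (0.37 and 0.21). For Col13a1 they were the mesoderm factor Foxc2 (0.45 and 0.24), the Notch ligands Dll3 (0.42 and 0.20) and Dll1 (0.41 and 0.14), Tmem132c (0.41 and 0.11) and the apelin receptor Aplnr (0.40 and 0.23). For Col4a1 they were Gpc3, Irf2bpl, Colec12, Prdm6 and Maged1, at 0.33 to 0.38 in set 2 and -0.07 to 0.10 in set 1. In set 1 the Col4a2 neighbours ranked from 6 to 4290 of the 10284 genes, the Col13a1 neighbours from 55 to 1637 and the Col4a1 neighbours from 1082 to 8321. Gpc3 and Colec12 stood at -0.00 and -0.07 with Col4a1 there. The Col4a2 and Col13a1 neighbours were positive in set 1, but all were picked as the highest of set 2, and a sign alone says little. Against marker sums, Col13a1 had a rho of 0.48 with the paraxial mesoderm markers in set 2 and 0.21 in set 1 at E7.25, and Col4a2 had -0.34 with the streak markers in both sets. At E7.25 Col4a2 also had 0.36 in set 2 and 0.13 in set 1 with the visceral endoderm markers. Of these 10 markers only 4 and 3 reached 1 CPM in sets 2 and 1 at E7.25, and Apoe alone had 0.35 and 0.13 with Col4a2. The Col4a2 values were 0.24 and 0.32 with the cardiac markers and -0.35 and -0.16 with the epiblast markers, in the same order. Col18a1 had 0.37 and 0.39 with the epiblast markers in E6.75 WT of sets 1 and 2 and 0.23 in knockout cells, but -0.08 at E7.25 in set 2. These values were not particular to epiblast markers. In E6.75 WT of sets 1 and 2, Col18a1 had 0.37 and 0.18 with the parietal endoderm markers and 0.19 and 0.34 with the epithelial markers. In knockout cells it had -0.32 with the nascent mesoderm markers. All cells share the thinned depth.

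The enzymes and chaperones that fold collagen were described beside the chains. Of 18 such genes, 16 were measured in the knockout comparison, and 7 were at least 2-fold lower (against 7.02% of all genes measured) and none higher, with a median log2 ratio of -0.40. P4ha2, a catalytic subunit of prolyl 4-hydroxylase, read 6.61 CPM in knockout and 25.9 in wild type (ratio -1.82), the lysyl hydroxylase Plod2 17.5 and 48.3 CPM (-1.42), and Serpinh1, the collagen chaperone HSP47, 12.3 and 29.8 CPM (-1.21). The others were P3h4 (-1.47, -1.465 before rounding), Plod1 (-1.10), P3h2 (-1.53) and P3h3 (-2.04). P4hb, the subunit shared with protein disulfide isomerase, was at 837.4 and 796.9 CPM (0.07). Between stages, P3h2, which modifies type IV collagen, was higher at E7.25 in set 1 (7.28 (7.275) to 45.97 CPM, ratio 2.51 (2.505)) and set 2 (18.4 to 60.6 CPM, 1.67), as was Serpinh1 (ratios 1.06 (1.055) and 1.10). Set 1 had 4 of 17 folding genes past 2-fold upward, with Fkbp14 and P4ha3, and set 2 had 2 of 16, against 7.07% and 5.66% of all genes.

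Of 18 genes for secretion, processing and crosslinking, 1 of 11 measured was lower in knockout, the lysyl oxidase homologue Loxl2 (0.782 and 3.78 CPM, ratio -1.42), a count near the 7.02% of all genes. At E7.25, 4 of 12 were higher in set 1 and 5 of 16 in set 2, against 7.07% and 5.66% of all genes. Sparc read 89.1 and 265.2 CPM in set 1 and 72.4 and 216.9 CPM in set 2 (1.56 and 1.57), and stood at 91.6 and 89.1 CPM in knockout and wild type at E6.75. The procollagen proteinase Bmp1 (1.36 and 1.67) and its enhancer Pcolce (1.02 and 1.13) were also higher at E7.25 in both sets.

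Of 12 collagen receptors, 5 were measured in each comparison; none passed 2-fold in knockout and 1 did upward in each stage comparison, against 7.07% and 5.66% of all genes. The integrin chain Itga1, which pairs with Itgb1 in a type IV collagen receptor, read 2.46 and 13.3 CPM at the 2 stages in set 1 (2.05) and 9.34 and 14.8 CPM in set 2 (0.61), and the receptor kinase Ddr1 was past 2-fold in set 2 (1.29 (1.285)) with 0.15 in set 1. Of 13 genes of collagen degradation and its inhibition, none of 7 measured passed 2-fold in knockout. At E7.25, 4 of 8 did upward in set 1 (Timp2, Mmp2, Mmp15 and Mmp16) and 1 of 8 in set 2 (Timp2, ratios 1.48 and 1.74), against 7.07% and 5.66% of all genes.

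Of 13 partners in the basement membrane, 10 were measured in each comparison. The laminin chain Lama1 read 4.61 CPM at E6.75 and 30.5 CPM at E7.25 in set 1 and 1.01 and 35.5 CPM in set 2, with ratios of 2.49 and 4.18. Lama5, the laminin chain that largely takes its place later, was lower at E7.25 in both sets (-1.41 (-1.405) and -1.08). In knockout, Lama1 was lower (0.395 CPM, ratio -2.01), with Lamb2 (-1.38), the perlecan gene Hspg2 (-1.25) and Lama4 (-1.12), and Lama5 was higher (39.9 and 18.6 CPM, 1.06). Upward at E7.25 was thus 1 of 10 partners in each set (all genes 7.07% and 5.66%) and downward 1 of 10 (4.49% and 2.48%), and in knockout 4 were lower and 1 higher (7.02% and 4.31%). The nidogens Nid1 and Nid2 and the laminin chains Lamb1 and Lamc1 stayed under 2-fold in all 3 comparisons.

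Detection of 4 chains was higher in library set 1 than in the deeper set 2. They were Col11a1, Col4a3, Col6a5 and Col15a1, for which, at E6.75 and at E7.25 alike, the share of cells with a read was above that in set 2 by at least 10 percentage points. This was 9.09% of the 44 chains and 2.49% (2.489) of 30332 genes with a read. Col4a1, Col4a2, Col18a1, Col13a1, Col23a1, Col5a1, Col5a2 and Col9a3 went the other way, read in a larger share of set 2 by at least 10 points at both stages. The share of all genes that went this way was not counted. Since set 2 is deeper and these shares are not thinned, this is not read as a trait of these chains. For Col4a1 the share in set 1 minus that in set 2 was -36.9 points at E6.75 and -15.6 at E7.25, without thinning. Col11a1, a fibrillar chain, had a read in 85.3% of the cells of set 1 and 15.95% of those of set 2, and 92.4% of the set 1 cells with a read had 1 to 5 reads. Col4a3, a type IV chain, had a read in 60.7% and 8.17% of the cells of sets 1 and 2, Col6a5 in 26.1% and 3.11%, and Col15a1 in 13.5% (13.49%) and 2.34% (2.335). Cells of set 1 were split into 4 bins by depth, with median depths of 344067, 650326, 1075392 and 1978449 reads. The median cell had 2 Col11a1 reads and 1 Col4a3 read in each bin, while Col4a1 went from 1 over 2 and 6 to 16 reads. The reads of Col11a1 and Col4a3 per cell thus did not go up with depth in set 1. Col4a3 reached 1 CPM in E7.25 cells of set 1 only (1.07 CPM), and Col11a1, at 2.38, 2.68 and 3.05 CPM (3.045) in the groups of set 1, was counted among the chains measured there without passing 2-fold in either comparison. All 4 chains read more often in set 1 are in the sums and counts above. Without them, the summed level in set 1 was 104.4 CPM in E6.75 WT, 69.8 (69.75) in knockout and 166.5 CPM at E7.25, and the counts past 2-fold were the same in each comparison (7 lower and 1 higher of 16 in knockout, 7 higher and 3 lower of 18 between stages of set 1, and 9 higher of 24 in set 2). The median log2 ratio without them was -0.72 in knockout and 0.37 and 0.66 between stages of sets 1 and 2, and the median E7.25 cell of set 1 had 3 chains in place of 4.

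**Figure D5:**
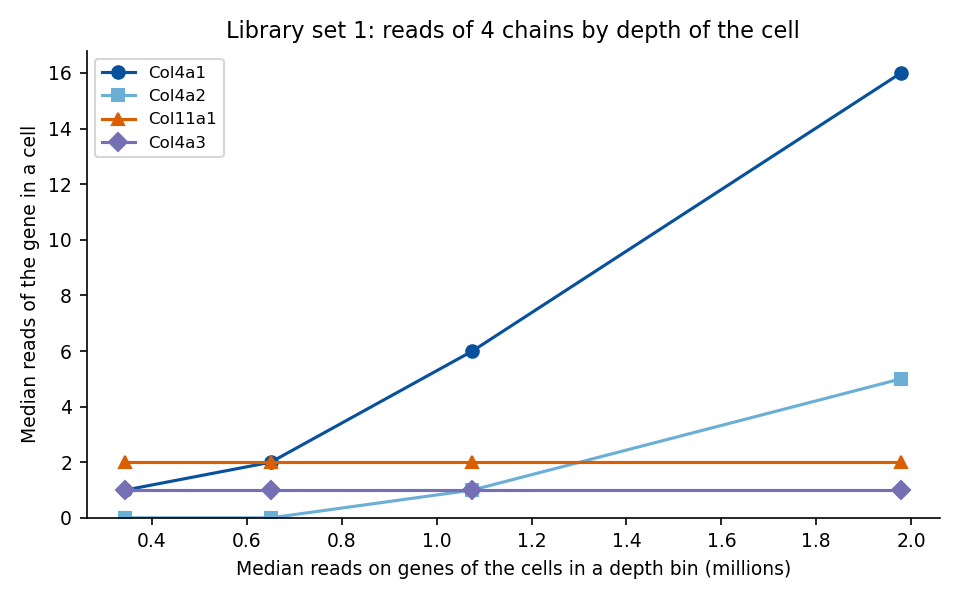
Median reads per cell of 4 collagen genes in the 4 depth bins of set 1, against the median depth of the bin. Col4a1 goes from 1 to 16 reads, while Col11a1 stays at 2 and Col4a3 at 1.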

How the data were processed

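The authors deposited a table of raw read counts per gene with 1 column per cell. Alignment was with GSNAP and counting with HTSeq 0.5.3p3 on mm10, per the submitters' processing notes; strand setting and annotation release were not given in the sources used here. Library preparation was plate-based with Nextera XT, per the labels' protocols. Gene names, lengths and positions are from GENCODE M21 (GRCm38), and start windows from RefSeq (GRCm38.p6); 0 of the 598 columns lacked a sample.

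The collagen genes, the lists of partner genes and markers, the library sets and the rules were chosen with earlier results of these data known. The groups held 172 E6.75 WT (83 and 89 in sets 1 and 2), 85 E6.75 KO and 341 E7.25 WT cells (173 and 168). A minimum of 100000 reads and 2000 genes per cell left out 0 cells. Within each set, the reads of all cells of a group were added up and scaled to CPM by all reads on genes. Log2 ratios are of CPM + 1, which understates differences of low genes. A gene was measured when the mean of the groups was at least 1 CPM and called at 2-fold. Thinning drew 100000 reads per cell without replacement. Exon length is the union of annotated exons. Named chains reached 5 CPM in any group; of partner lists, genes past 2-fold in knockout or in both sets, and up to 4 of at least 5 CPM with the largest ratios; P4hb, P4ha3, Mmp16, Nid1, Nid2, Lamb1 and Lamc1 and chains under 5 CPM were named after their values were seen. Genes most like a chain were the 5 with the highest Spearman correlation over thinned cells, among genes read in 25% of them. Python 3.11.15, numpy 2.4.6, pandas 2.3.3 and scipy 1.17.1 were used. edgeR 4.0.16 and DESeq2 1.42.0 (R 4.3.3) gave scaling factors only, and no test was run. The steps were tested on simulated counts. Alternatives were averaging cells, those scalings, 10 CPM added, other minimums, thinning and stricter cell filters. Others left out the deepest 5% of cells or mitochondrial genes, pooled the sets, or took cells with or without Y-linked reads. Added after the data were seen were each cell left out in turn, the 4 chains read more often in set 1 left out, and the Y-linked split of single chains. The comparison between sets was added then too.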

Additional observations from a re-analysis of the deposited data

Results flagged for a closer look

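Col18a1 differed between cells of library set 1 with and without Y-linked reads in the knockout comparison. Among cells with Y-linked reads it stood at 38.5 CPM in 49 knockout cells and 18.5 CPM in the 53 of wild type, giving 1.02 as log2 ratio. Among cells without them it stood at 9.05 CPM in 36 knockout cells and 22.8 CPM in the 30 of wild type, giving -1.24 as log2 ratio. The 2 ratios point in opposite directions, each past 2-fold, and the difference between them was not tested. The Col4a1 ratios of the same cells were -1.02 and -1.28 (-1.275), and those of Col4a2 were -2.81 and -0.71.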

How the results depend on the processing

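The 17 log2 ratios of named chains of at least 2-fold kept their direction in every alternative value computed for them, and the other 22 kept it in 88.9%. Of the 17, Col1a2 in knockout (-1.004, from 0.325 and 1.66 CPM) was not called, because its mean was under the minimum of 1 CPM. It was among the lower chains with TMM or median-of-ratios factors and with no minimum. Percentages in brackets are the shares of all genes so called in the same alternative. Alternatives whose counts lay closer to the main count are mostly not listed, and an equal count can hold other chains. Knockout, lower (7 chains): 4 from the mean CPM of cells (4.56%, 4.555), 0 with 10 CPM added (0.782%) and 1 at a minimum of 10 CPM (3.28%, 2 chains measured). It was 5 with thinning (4.99%), 6 without the deepest cells (5.82%) and 10 with sets pooled (8.58%). Of these, 5, 5 and 6 were among the 7 main ones. Leaving out each cell gave 6 to 9. Knockout, higher (1 chain): 0 with 10 CPM added (0.353%), at the 10 CPM minimum (1.66%), without the deepest cells (3.56%) and with sets pooled (2.56%). There were 2 with (5.86%) and 3 without Y-linked reads (10.79%), and 0 to 1 over cells left out. From the mean of cells (3.3%) and with thinning (3.7%) the 1 higher chain was Col26a1, not Col6a2. E7.25 higher in set 1 (7): 0 with 10 CPM added (1.229%) and 2 at the 10 CPM minimum (4.203%, 3 chains measured). There were 4 without the deepest cells (5.651%), and 6 to 8 over cells left out. E7.25 lower in set 1 (3): 1 from the mean of cells (3.57%), with thinning (3.77%), without the deepest cells (3.74%) and without Y-linked reads (7.75%). It was 0 with 10 CPM added (0.596%), at the 10 CPM minimum (2.35%) and with sets pooled (2.03%), and 1 to 4 over cells left out. E7.25 higher in set 2 (9): 3 with 10 CPM added (1.26%) and 5 at the 10 CPM minimum (3.27%, 6 chains measured), and 8 to 10 over cells left out. E7.25 lower in set 2 (0): 1 with TMM (2.60%) or median-of-ratios factors (2.67%), 2 with mitochondrial genes left out (2.70%), and 0 to 2 over cells left out. Chains on at a share of 10% of cells were 5 in place of 3 and 8 in place of 4 in the E6.75 and E7.25 wild type cells of set 1, and 10 in place of 5 at E6.75 in set 2; without thinning the last of these were 7 and 10. The median of all genes lay within 0.1 of 0 in each scaling except pooled sets (-0.11). A higher minimum leaves fewer chains to call, and adding 10 CPM shrinks the ratios of all low genes. The other causes were not tested. In a cell thinned to 100000 reads 1 read is worth 10 CPM, so chains of a few CPM are seen in sums and rarely in single cells. No paired analysis was possible because the labels give cell numbers that pair no samples.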
